A study of Homo sapiens with 6 samples.

Results

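The genes described here encode the machinery that imports proteins into mitochondria and the carriers that move small molecules across the inner mitochondrial membrane. They were taken by symbol, as every gene whose name begins with TIMM, TOMM or SLC25A followed by a digit and whose probe set carries 1 gene symbol in the platform annotation. The rule found 70 of the 18417 genes tested. They were 21 genes of the import machinery, 46 carrier genes and 3 non-coding symbols that share the prefix. Another 5 probe sets listed a matching symbol together with a second symbol and were not used, so TOMM5, TOMM6, TOMM7 and TIMM23B were not analysed here.

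RNA was measured on 6 whole-transcript expression arrays in WM164, a human melanoma line established from a lymph node metastasis and labelled as BRAF mutated. The IDTC (induced drug tolerant cell) group consisted of 3 cultures given PLX4032, an inhibitor of mutant BRAF, at 500 nM for 16 days, with the medium renewed at intervals. The Parent group held 3 cultures given DMSO, the solvent of the drug, for a time that the labels do not state. Both groups were grown in the same medium with serum, and all arrays come from a single line at 1 dose and 1 time. Cultures were kept in triplicate and extracted separately, but whether they are separate experiments is not stated, and the p-values speak to the variation among these 6 samples, some of it perhaps technical.

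Nearly all mitochondrial proteins are made in the cytosol and must be imported. Preproteins bind receptors of the TOM complex in the outer membrane and cross it through the TOMM40 channel. Those with a presequence then pass the inner membrane through the TIM23 complex, whose motor pulls them into the matrix, whereas carrier proteins are escorted by small TIM chaperones to the TIM22 complex, which inserts them. The SLC25 carriers are themselves clients of this route, and they exchange nucleotides, phosphate, carboxylates, amino acids, cofactors and iron between cytosol and matrix.

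In the drug-tolerant cells most import genes fell. The share of carriers called was near that of all genes, with a larger share called lower. Of the 21 import genes, limma called 17 lower and 1 higher and left 3 not called, where a call needs p under 0.05 after Benjamini-Hochberg adjustment across the whole table. Over all genes tested 46.6% were called, 24.9% lower and 21.7% higher. That balance depends on the scaling of the arrays: 4592 genes were called lower and 3996 higher here, but 4017 lower and 4846 higher with arrays re-centred on the medians of the genes tested, and 4403 and 4504 with quantile normalization over them. Among genes above the 40th percentile of mean level 37.2% were called lower and 65% in either direction. The gene sets described here were not filtered on level, so they are not fully like that background. The IDTC arrays lay wholly below the Parent arrays for 17 import genes and wholly above for 2, and for 20 and 6 carriers, where 28.7% of all genes lay below, 25.4% above and 54.1% either way. The median log2 fold change (IDTC minus Parent) of the import genes was -0.55, against -0.01 over all genes. Of the 46 carriers, 18 fell, 5 rose and 23 were not called, and their median was -0.15. As shares, 50% of the carriers were called, 39.1% lower and 10.9% higher. Their share called was near the 46.6% of all genes but below the 65% of genes above the 40th percentile. Their share lower was above the 24.9% of all genes and near the 37.2% of that brighter set. The brighter set holds no dim genes, whereas 7 of the 46 carriers lay at or below the 40th percentile. For the import genes 85.7% were called and 81% were lower. A change of 2-fold or more was called for 5 import genes, all lower, and for 5 carriers, 4 of them lower and 1 higher. Over all genes 9.21% were called at that size, 5.4% lower and 3.81% higher. The arrays measure the pooled RNA of a culture, so fewer cells with a transcript and less of it per cell cannot be told apart.

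**Figure D1:**
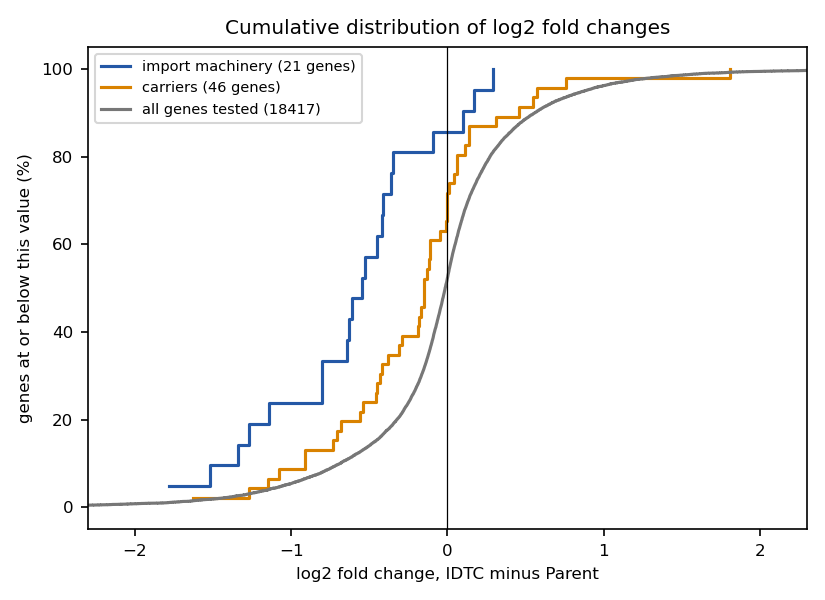
Cumulative share of genes (vertical axis, percent) at or below each log2 fold change, IDTC minus Parent (horizontal axis), for the import machinery, the carriers and all genes tested. The import curve lies to the left, with a median of -0.55, the carriers reach theirs at -0.15 and all genes at -0.01; 1 carrier stands far to the right at 1.81.

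The mean over the import genes was 8.05, 8.06 and 8.01 log2 units in the 3 IDTC arrays, against 8.70, 8.63 and 8.66 in the 3 Parent arrays. The mean over the carriers was 7.80, 7.77 and 7.79 in the IDTC arrays, against 7.96, 7.99 and 8.02 in the Parent arrays. The groups did not overlap in either mean. The import mean exceeded the carrier mean by 0.25 ± 0.034 in IDTC arrays and by 0.67 ± 0.063 in Parent arrays (SD, n = 3 each), a difference of -0.42 between the groups. The genes behind these means were chosen with results known, and no p is given for them. Over all genes the array mean was 7.04 in each IDTC array and 7.06 to 7.08 in the Parent arrays.

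Promoter sequences are shown for the import gene with the largest fall (TIMM17A), the channel gene TOMM40, the import gene that rose (TOMM20), and the carriers with the largest fall (SLC25A15) and the largest rise (SLC25A27). Each runs from 250 bases before to 50 bases after the transcript start, from RefSeq on GRCh38.p14, 5′ to 3′ on the strand of the gene. Capitals mark the 4 motifs searched on both strands, which are the E-box CACGTG, a core of the NRF1 site (GCGC, any base, then TGCGC), the ETS site CCGGAAG and the CCAAT box CCAAT. The windows lie at chr1:201955253-201955552 on the plus strand for TIMM17A, chr19:44891004-44891303 on the plus strand for TOMM40, chr1:235128788-235129087 on the minus strand for TOMM20, chr13:40789361-40789660 on the plus strand for SLC25A15 and chr6:46652725-46653024 on the plus strand for SLC25A27.
TIMM17A: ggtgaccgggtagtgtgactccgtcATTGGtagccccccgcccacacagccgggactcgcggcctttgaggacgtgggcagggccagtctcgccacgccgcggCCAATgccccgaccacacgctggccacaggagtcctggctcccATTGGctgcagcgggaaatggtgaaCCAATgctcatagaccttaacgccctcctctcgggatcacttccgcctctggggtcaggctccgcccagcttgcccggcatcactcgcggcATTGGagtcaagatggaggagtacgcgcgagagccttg
TOMM40: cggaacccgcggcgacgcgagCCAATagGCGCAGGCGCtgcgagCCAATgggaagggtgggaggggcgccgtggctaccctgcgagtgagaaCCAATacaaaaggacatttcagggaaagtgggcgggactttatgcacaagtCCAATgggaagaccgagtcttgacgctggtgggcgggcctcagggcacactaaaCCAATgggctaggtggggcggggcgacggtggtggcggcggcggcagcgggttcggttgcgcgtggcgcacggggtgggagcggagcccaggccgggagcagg
TOMM20: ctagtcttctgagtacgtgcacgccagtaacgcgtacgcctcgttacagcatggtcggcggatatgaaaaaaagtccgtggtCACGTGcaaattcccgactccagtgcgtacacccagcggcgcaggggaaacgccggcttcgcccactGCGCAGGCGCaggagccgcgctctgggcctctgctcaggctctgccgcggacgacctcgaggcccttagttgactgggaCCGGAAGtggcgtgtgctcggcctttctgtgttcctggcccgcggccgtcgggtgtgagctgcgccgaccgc
SLC25A15: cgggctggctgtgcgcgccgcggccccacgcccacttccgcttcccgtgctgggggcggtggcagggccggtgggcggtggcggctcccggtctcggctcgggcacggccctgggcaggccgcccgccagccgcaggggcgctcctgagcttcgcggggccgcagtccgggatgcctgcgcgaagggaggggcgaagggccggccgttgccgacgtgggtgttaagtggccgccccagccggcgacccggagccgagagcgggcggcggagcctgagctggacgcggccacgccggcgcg
SLC25A27: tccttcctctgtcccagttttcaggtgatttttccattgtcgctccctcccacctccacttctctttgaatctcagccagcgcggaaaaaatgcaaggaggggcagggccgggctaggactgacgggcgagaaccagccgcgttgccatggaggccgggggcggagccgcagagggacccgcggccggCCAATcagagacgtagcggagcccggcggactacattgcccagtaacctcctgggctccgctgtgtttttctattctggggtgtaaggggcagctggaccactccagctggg

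The TIMM17A window held 5 CCAAT boxes, 3 of them on the opposite strand, so that they read ATTGG in the letters shown. In the TOMM40 window there were 5 CCAAT boxes and 1 NRF1 core. The TOMM20 window held 1 E-box, 1 NRF1 core and 1 ETS site and no CCAAT box, the SLC25A27 window held 1 CCAAT box, and none of the 4 motifs was found in the letters of the SLC25A15 window. The NRF1 cores of TOMM40 and TOMM20 also lay on the opposite strand and read GCGCAGGCGC in the letters shown. No matches of different motifs overlapped. Promoters were found for 20 of the 21 import genes, all but TIMM8B, and for 39 of the 46 carriers, and a gene with several windows was counted once. An ETS site stood in 9 of the 20 import promoters (45%) and in 11 of the 39 carrier promoters (28.2%), against 16.8% of the promoters of genes tested and 12.2% of all promoters in the table. A CCAAT box stood in 8 of 20 (40%) and 20 of 39 (51.3%), against 42.2% of genes tested and 39.7% of all. The NRF1 core was found in 4 import promoters (20%) and 5 carrier promoters (12.8%), against 10.1% of genes tested and 6.98% of all. An E-box was found in 3 import promoters (15%) and 9 carrier promoters (23.1%), against 10.9% and 8.77%. Among the import genes that fell, 6 of 16 promoters held an ETS site and 8 of 16 a CCAAT box. Among those called higher or not called, 3 of 4 held an ETS site and 0 of 4 a CCAAT box, but 4 promoters are few. The carriers did not repeat this contrast. A CCAAT box stood in 8 of 15 promoters of carriers that fell and in 12 of 24 of the others, and an ETS site in 5 of 15 and 6 of 24. These matches describe letters in a window and are not evidence that a factor binds there.

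**Figure D2:**
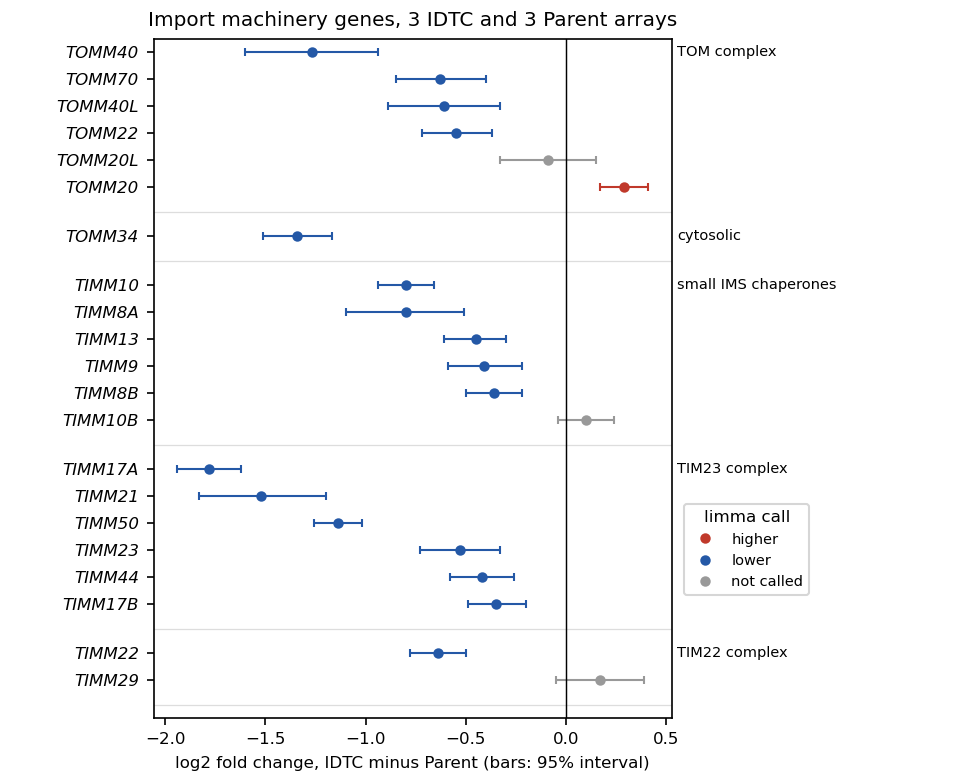
Log2 fold change, IDTC minus Parent (horizontal axis), of the 21 import genes, grouped by complex. Points are limma estimates over 3 IDTC and 3 Parent arrays and bars their 95% intervals; 17 genes lie to the left of 0 and are called lower, and TOMM20, at 0.29, is the called gene on the right.

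Of the 6 measured genes of the TOM complex, 4 fell, 1 rose and 1 was not called. That was 83.3% called, against 46.6% of all genes and 65% of genes above the 40th percentile of mean level. TOMM40, which forms the channel of the outer membrane, measured 7.09, 7.23 and 7.65 in the IDTC arrays, against 8.67, 8.58 and 8.52 in the Parent arrays. All IDTC arrays lay below all Parent arrays, and the IDTC values were the most spread of any import gene (SD 0.30, against 0.08 in Parent). It fell by 1.27 ± 0.14 on the log2 scale (SE, 2.41-fold, adjusted p = 0.000202). Its relative TOMM40L fell by 0.61 ± 0.12 (adjusted p = 0.00417).

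The receptors of the outer membrane did not move together. TOMM70, the receptor that takes carrier precursors from cytosolic chaperones, measured 7.96, 7.82 and 7.60 in the IDTC arrays, against 8.49, 8.42 and 8.35 in the Parent arrays, and fell by 0.63 ± 0.10 (adjusted p = 0.00125). TOMM22, the central receptor that holds the complex together, fell by 0.55 ± 0.07 (adjusted p = 0.000572), and a second, dimmer probe set of it was lower by 0.80. TOMM20, the receptor that binds presequences, had values of 10, 10 and 9.96 in the IDTC arrays and 9.71, 9.74 and 9.65 in the Parent arrays. The groups were apart with the IDTC arrays on top, a rise of 0.29 ± 0.05 (1.22-fold, adjusted p = 0.00277). It was the single import gene called higher, except that under both quantile normalizations TIMM10B was called higher as well (0.19 and 0.23). TOMM20L, a relative of TOMM20, was dim, at 4.25, 4.32 and 4.49 in IDTC and 4.24, 4.51 and 4.57 in Parent arrays, which overlap. Its difference was -0.09, with a 95% interval from -0.33 to 0.15.

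TOMM34, a cytosolic cochaperone of preproteins, measured 10.11, 10.03 and 9.90 in the IDTC arrays, against 11.43, 11.33 and 11.30 in the Parent arrays. The groups were far apart, and the gene fell by 1.34 ± 0.07 (2.53-fold, adjusted p = 5.37e-06).

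The TIM23 complex was the group in which each of the 6 measured genes fell, with a median of -0.84. Of all genes 24.9% were called lower, and 37.2% of those above the 40th percentile of mean level. TIMM17A, a core subunit of the translocase, measured 7.25, 7.15 and 7.10 in the IDTC arrays, against 9.05, 8.90 and 8.92 in the Parent arrays. No import gene changed more: it fell by 1.78 ± 0.07 (3.44-fold, adjusted p = 1.37e-06), and no array of one group came near the other. TIMM17B, the alternative form of the same subunit, measured 7.64, 7.68 and 7.54 in IDTC and 8.02, 7.98 and 7.90 in Parent arrays, and changed least in the complex. It fell by 0.35 ± 0.06 (adjusted p = 0.00267).

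TIMM21, which links the TIM23 complex to TOM and to the respiratory chain, measured 7.36, 7.22 and 6.87 in the IDTC arrays, against 8.83, 8.56 and 8.60 in the Parent arrays. The third IDTC array was the lowest, all 3 were below the Parent arrays, and the gene fell by 1.52 ± 0.13 (2.86-fold, adjusted p = 6.3e-05). TIMM50, the presequence receptor on the intermembrane space side, varied little between arrays of a group. Its values were 10.89, 10.93 and 10.93 in IDTC arrays, against 12.04, 12.04 and 12.09 in Parent arrays. It fell by 1.14 ± 0.05 (2.2-fold, adjusted p = 2.35e-06). TIMM23, the channel-forming subunit, fell by 0.53 ± 0.09, but its probe set was dim (means of 5.06 in IDTC and 5.59 in Parent), and a near-identical gene copy, TIMM23B, makes its value uncertain. TIMM44, which tethers the import motor to the channel, fell by 0.42 ± 0.07 (adjusted p = 0.00158).

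In the TIM22 route, 5 of the 6 small chaperones fell. That was 83.3% lower, against 24.9% of all genes and 37.2% of genes above the 40th percentile of mean level. TIMM8A, which forms a complex with TIMM13 and is the gene of a deafness and dystonia syndrome, measured 7.24, 7.14 and 6.85 in the IDTC arrays, against 8.04, 7.69 and 7.91 in the Parent arrays. The groups did not overlap, and the gene fell by 0.80 ± 0.12 (1.75-fold, adjusted p = 0.00124). TIMM10, the partner of TIMM9 in the main carrier chaperone, fell equally by 0.80 ± 0.06, TIMM13 fell by 0.45 ± 0.06, TIMM9 by 0.41 ± 0.08 and TIMM8B by 0.36 ± 0.06. TIMM10B, the small chaperone bound to the TIM22 complex, was not called, with 9.42, 9.53 and 9.40 in IDTC arrays, against 9.34, 9.32 and 9.39 in Parent arrays. The IDTC arrays all lay above the Parent arrays by a small margin (0.10, 95% interval from -0.04 to 0.24).

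TIMM22, the inner membrane insertase for carriers, measured 10.59, 10.70 and 10.71 in the IDTC arrays, against 11.28, 11.27 and 11.36 in the Parent arrays. It fell by 0.64 ± 0.06 (1.56-fold, adjusted p = 8.32e-05). TIMM29, a subunit that stabilises the TIM22 complex in human cells, measured 7.13, 7.47 and 7.28 in IDTC and 7.02, 7.14 and 7.20 in Parent arrays. These ranges overlap, and the difference of 0.17 was not called (95% interval from -0.05 to 0.39).

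**Figure D3:**
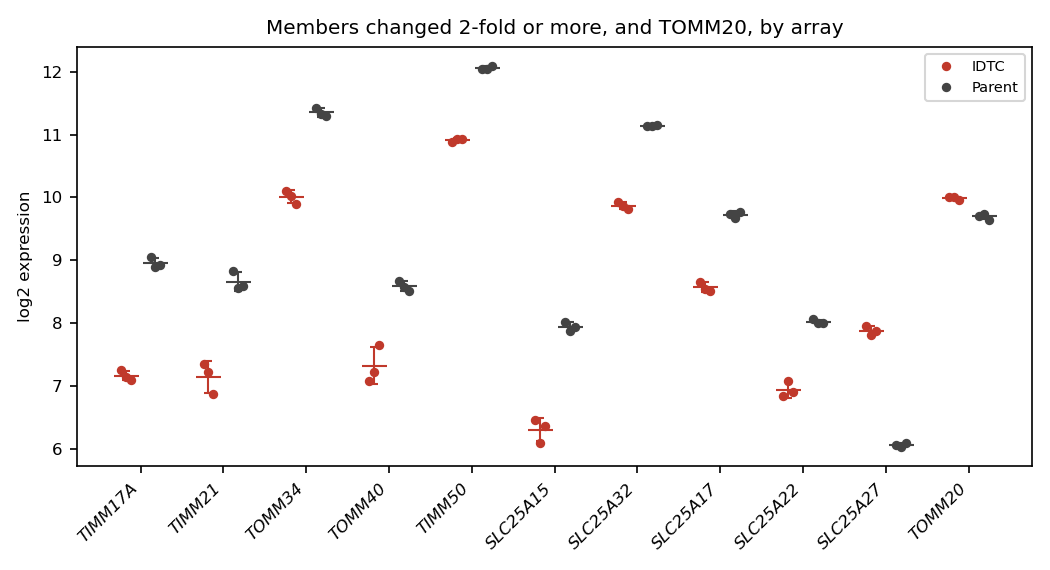
Log2 expression (vertical axis) in each array of the 10 members changed by 2-fold or more and of TOMM20; dots are arrays, horizontal bars group means and vertical bars the SD of 3 arrays. IDTC dots stand left of Parent dots for each gene; SLC25A27 and TOMM20 are higher in IDTC and the others lower.

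Other genes of the import pathway were listed by their function. Of 31 listed, 29 were measured, and 18 fell, 4 rose and 7 were not called (median -0.36). That was 75.9% called and 62.1% lower, against 46.6% and 24.9% of all genes. Among genes above the 40th percentile of mean level the shares were 65% and 37.2%. The median level percentile of this list was 79.8. GRPEL1, the nucleotide exchange factor of the import motor, measured 8.33, 8.34 and 8.32 in the IDTC arrays, against 9.99, 9.88 and 9.89 in the Parent arrays, and fell by 1.59 ± 0.05 (adjusted p = 9.61e-07). The matrix chaperonin genes HSPD1 and HSPE1, which fold imported proteins, fell by 1.35 ± 0.06 and 1.26 ± 0.07. The cytosolic chaperone genes DNAJA1 and HSP90AB1, which serve preproteins and many other clients, fell by 1.06 ± 0.09 and 0.99 ± 0.05. PINK1, a kinase that is imported and degraded in healthy mitochondria and marks damaged ones for removal, rose by 0.72 ± 0.07 (adjusted p = 0.000126). The other 3 that rose were chosen for mention after their values were seen. They were DNAJC19 of the motor (0.36 ± 0.07), the processing peptidase gene PMPCB (0.31 ± 0.07) and the inner membrane peptidase gene IMMP2L (0.64 ± 0.17), whose IDTC values of 6.98, 6.54 and 6.22 were widely spread, against 5.98, 5.97 and 5.88 in Parent. IMMP2L lost its call without IDTC 2 and without each Parent array in turn (0.61 to 0.66, adjusted p = 0.051 to 0.0719).

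**Figure D4:**
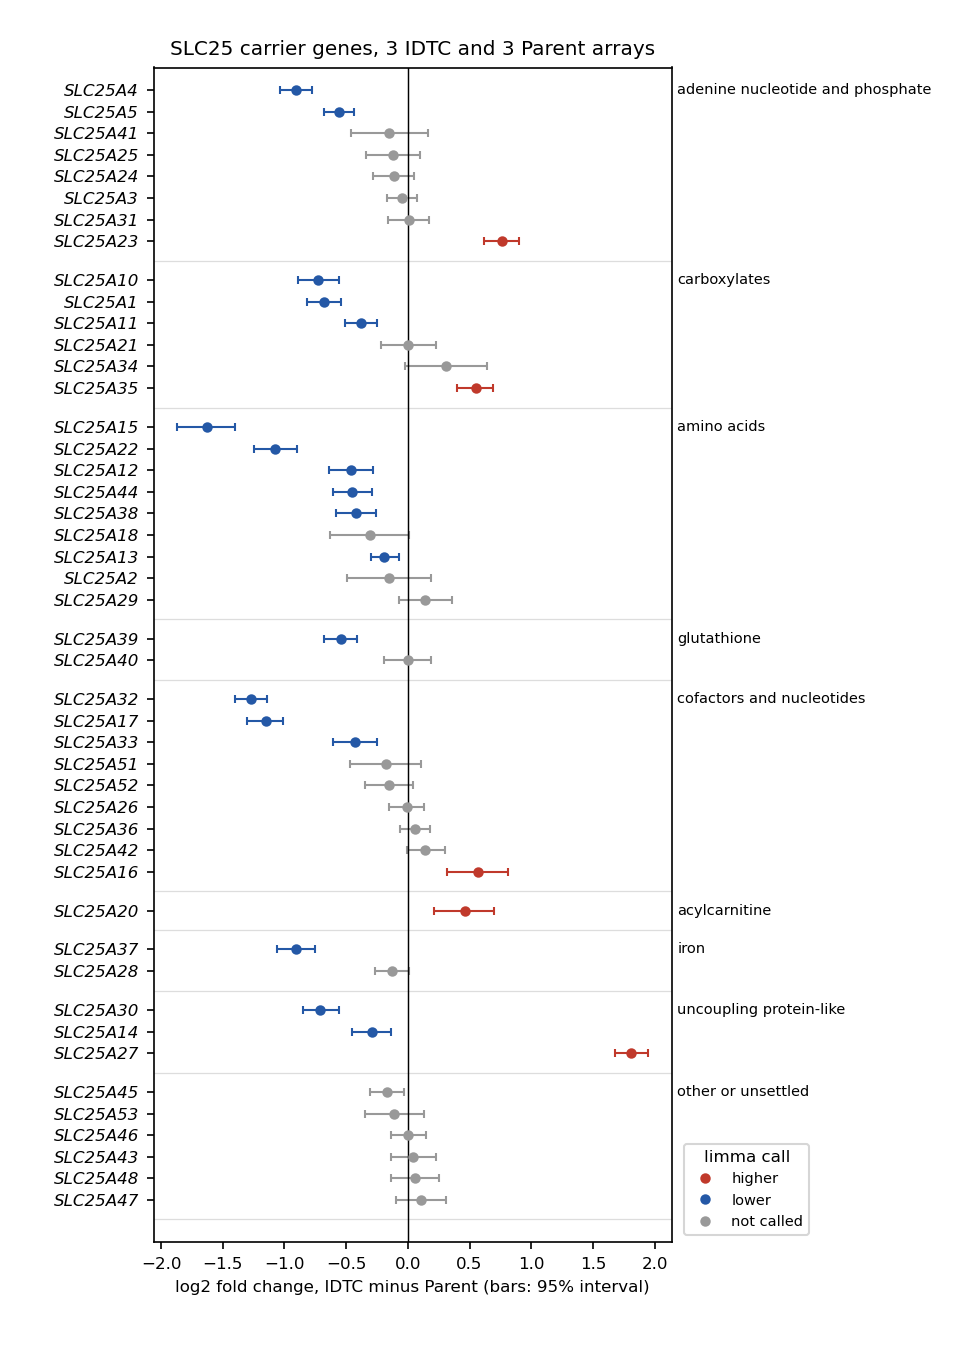
Log2 fold change, IDTC minus Parent (horizontal axis), of the 46 SLC25 carrier genes by substrate class. Points are limma estimates over 3 IDTC and 3 Parent arrays and bars their 95% intervals; 18 genes are called lower, 5 higher, and the 6 genes classed as other or without a settled substrate cluster around 0.

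Among the 46 carriers, 6 of the 9 amino acid carriers fell and none rose (median -0.42). That was 66.7% called, against 46.6% of all genes and 65% of genes above the 40th percentile of mean level. The shares lower were 66.7%, 24.9% and 37.2%. SLC25A15, which exchanges ornithine and citrulline for the urea cycle, measured 6.46, 6.10 and 6.36 in the IDTC arrays, against 8.02, 7.87 and 7.94 in the Parent arrays. The groups were far apart, and no carrier fell further: it fell by 1.63 ± 0.10 (3.11-fold, adjusted p = 9.27e-06). SLC25A22, a glutamate carrier, measured 6.84, 7.09 and 6.91 in IDTC, against 8.06, 8.01 and 8.01 in Parent arrays, and fell by 1.08 ± 0.07 (2.11-fold, adjusted p = 1.9e-05). The other 4 that fell changed by 0.19 to 0.46. The smallest of these falls, of the aspartate and glutamate carrier SLC25A13, was not called under 3 of 4 other scalings of the arrays, where its difference was -0.12, -0.12 and -0.04, and without IDTC 2 or Parent 3 (-0.18 and -0.17). SLC25A18, a glutamate carrier that was not called here (-0.31), was called lower under 3 of those 4 scalings (-0.33, -0.37 and -0.33) and without IDTC 3 (-0.45).

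Of the 9 carriers of cofactors and nucleotides, 3 were lower, 1 higher and 5 not called. That was 44.4% called, near the 46.6% of all genes. SLC25A32, which brings folate or a flavin cofactor into the matrix, measured 9.93, 9.87 and 9.81 in IDTC, against 11.14, 11.13 and 11.16 in Parent arrays. The arrays of each group lay close together, and the gene fell by 1.27 ± 0.06 (2.42-fold, adjusted p = 2.17e-06). SLC25A17, a carrier of the peroxisome and not of mitochondria, measured 8.66, 8.55 and 8.51 in the IDTC arrays, against 9.74, 9.67 and 9.77 in the Parent arrays, and fell by 1.15 ± 0.06 (2.22-fold, adjusted p = 5.64e-06). SLC25A16, linked to coenzyme A, rose by 0.57 ± 0.10 (adjusted p = 0.00305).

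Of the 8 adenine nucleotide and phosphate carriers, 2 fell, 1 rose and 5 were not called. That was 37.5% called, against 46.6% of all genes. SLC25A5, the ADP/ATP carrier of dividing cells, measured 11.80, 11.81 and 11.84 in IDTC, against 12.35, 12.39 and 12.39 in Parent arrays, and it fell by 0.56 ± 0.05 (adjusted p = 6.65e-05). SLC25A5 has processed pseudogenes, and array probes may share signal with them. SLC25A4, the ADP/ATP carrier typical of muscle and heart, fell by 0.91 ± 0.06 (adjusted p = 1.05e-05). SLC25A3, which supplies phosphate for ATP synthesis, was not called, with means of 11.57 ± 0.04 in IDTC and 11.62 ± 0.02 in Parent arrays (SD, n = 3 each) and a 95% interval of the difference from -0.17 to 0.07. SLC25A23, a calcium-regulated ATP-Mg/phosphate carrier, measured 8.96, 8.85 and 8.83 in the IDTC arrays, against 8.16, 8.13 and 8.07 in the Parent arrays. It rose by 0.76 ± 0.06 (1.69-fold, adjusted p = 3.54e-05), while its relatives SLC25A24 (-0.11) and SLC25A25 (-0.12) were not called.

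Of the 6 carboxylate carriers, 3 fell, 1 rose and 2 were not called. That was 66.7% called, against 46.6% of all genes and 65% of genes above the 40th percentile of mean level. SLC25A1, the citrate carrier that exports acetyl units for lipid synthesis, fell by 0.68 ± 0.06 (means of 9.67 ± 0.03 in IDTC and 10.35 ± 0.07 in Parent, SD, n = 3 each). SLC25A10, the dicarboxylate carrier, fell by 0.73 ± 0.07, and SLC25A35 rose by 0.55 ± 0.06 (adjusted p = 0.000232). SLC25A20, which carries acylcarnitines to fatty acid oxidation, measured 7.45, 7.42 and 7.09 in IDTC, against 6.86, 6.79 and 6.94 in Parent arrays. Its groups did not overlap, and it rose by 0.46 ± 0.10 (adjusted p = 0.00852).

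The uncoupling protein-like carriers held the largest rise. SLC25A27, also called UCP4 and known from the brain, measured 7.95, 7.81 and 7.88 in the IDTC arrays, against 6.07, 6.03 and 6.10 in the Parent arrays. The groups were far apart, and the gene rose by 1.81 ± 0.06 (3.51-fold, adjusted p = 7.17e-07). SLC25A30 fell by 0.71 ± 0.06, and SLC25A14 fell by 0.29 ± 0.07. The iron importer of erythroid cells, SLC25A37 (mitoferrin-1), fell by 0.91 ± 0.07 (adjusted p = 2.43e-05) on its brighter probe set. Its dimmer probe set differed by -0.14 and was not called (adjusted p = 0.175). SLC25A39, needed for glutathione import, fell by 0.54 ± 0.06 (adjusted p = 0.000168).

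None of the 6 carriers classed as other or without a settled substrate was called by limma (SLC25A45 came closest, -0.17 ± 0.06, adjusted p = 0.0502, unadjusted p = 0.0234, and it was called lower under 3 alternatives). The 3 non-coding symbols, SLC25A5-AS1, SLC25A51P1 and SLC25A51P4, were not called either, at -0.12, -0.01 and -0.18. Of the 46 carriers 7 lay at or below the 40th percentile of mean level, as did 2 of the 21 import genes, and at such levels a change is understated by background signal.

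Transporters outside the SLC25A symbols, nearly all of the inner membrane, were listed beside them. The list also held MTCH1 and MTCH2, which lie in the outer membrane and were counted among the import partners as well. MTCH2 fell (-0.40) and MTCH1 was not called, in both counts. Of 22 listed, 20 were measured, and 11 fell, 2 rose and 7 were not called (median -0.35). That was 65% called and 55% lower, against 46.6% and 24.9% of all genes. Among genes above the 40th percentile of mean level 65% were called as well, and 37.2% were lower. SFXN1, a serine transporter, measured 9.00, 9.01 and 8.90 in IDTC, against 10.77, 10.69 and 10.79 in Parent arrays, and fell by 1.78 ± 0.06 (adjusted p = 8.18e-07). Its relatives SFXN4 and SFXN2 fell by 1.14 ± 0.07 and 1.07 ± 0.06. Of the calcium uniporter, the inhibitory subunit gene MCUB measured 6.08, 6.11 and 6.04 in IDTC, against 8.14, 7.71 and 7.74 in Parent arrays, and fell by 1.78 ± 0.12. SMDT1, the regulator needed for its activity, rose by 0.64 ± 0.06. The other rise, of UCP3 (0.16 ± 0.05, adjusted p = 0.0468), was lost under most alternatives. LETM1, an ion exchanger, fell by 0.92 ± 0.08.

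**Figure D5:**
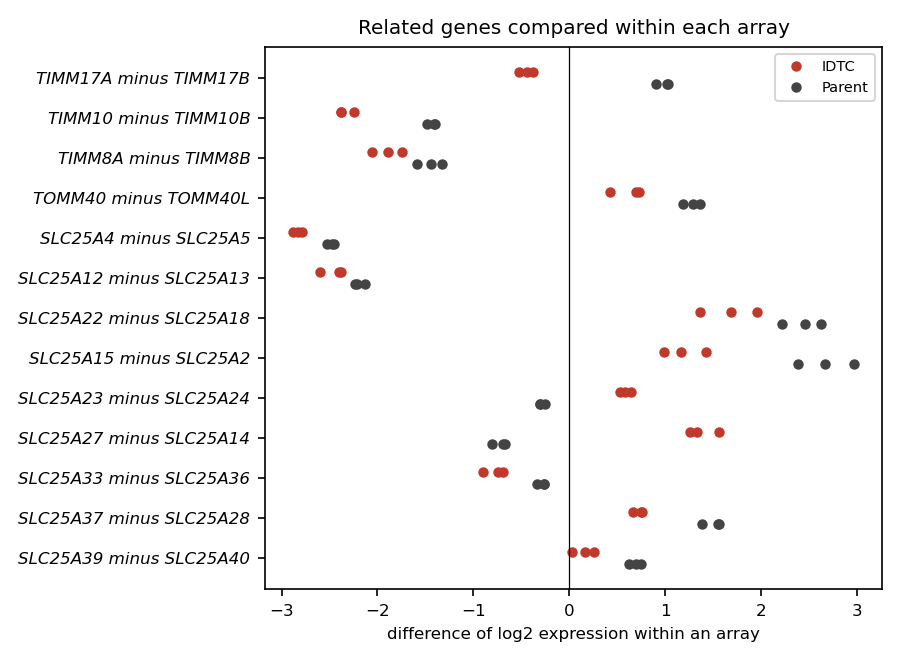
Difference of log2 expression between 2 related genes within an array (horizontal axis) for 13 pairs; dots are arrays, IDTC above Parent in each row. The place of a row on the axis has no meaning, since probe sets differ in brightness; the distance between the groups is the unequal change, from 0.27 for SLC25A12 and SLC25A13 to 2.11 for SLC25A27 and SLC25A14.

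Related genes were also set against each other within each array, by subtracting the level of 1 gene from that of its relative. The 13 pairs were picked with the results known, so their differences are a description with no test, and they do not stand for relatives in general. SLC25A24 and SLC25A25, which were not paired, differed alike between the groups (-0.11 and -0.12), and SFXN4 and SFXN2 fell by 1.14 and 1.07. TIMM17A minus TIMM17B was -0.38, -0.52 and -0.44 in the IDTC arrays, against 1.03, 0.91 and 1.02 in the Parent arrays, a shift of -1.44. TIMM10 shifted by -0.90 against TIMM10B and TOMM40 by -0.66 against TOMM40L. SLC25A27 minus SLC25A14 was 1.56, 1.26 and 1.33 in IDTC, against -0.69, -0.81 and -0.67 in Parent arrays, a shift of 2.11. SLC25A23 shifted by 0.87 against SLC25A24 and SLC25A39 by -0.54 against SLC25A40. SLC25A37 shifted by -0.77 against SLC25A28 on its brighter probe set (-0.91), but its other probe set differed by -0.14, close to the -0.13 of SLC25A28.

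All 6 arrays were kept, but IDTC 3 differed somewhat from the other arrays. Its upper quartile was 8.17, against 8.24 to 8.3 in the others, and its lower quartile 4.86, against 4.7 to 4.81. Without IDTC 3 more genes were called, 4823 lower and 4052 higher, against 4592 and 3996 with all arrays. Without any 1 of the other arrays fewer were called, 3976 to 4427 lower and 3361 to 3801 higher. Values ran from 1.82 to 13.9 log2 units, array medians from 6.25 to 6.36, and arrays of 1 group correlated across genes at 0.995 to 0.998. Of the 8 listed melanocyte lineage markers 7 were measured, and their mean level was 11.24 in IDTC and 10.75 in Parent arrays, with 4 higher, 1 lower and 2 not called. Levels of different probe sets cannot be set against each other, so for markers of other cell types the values are given without a comparison. Their mean levels were 6.12 and 6.34 for 5 fibroblast markers (2 lower, 3 not called), 5.47 and 5.45 for 4 keratinocyte markers, 5.12 and 5.19 for 4 endothelial markers and 4.73 and 4.71 for 3 leukocyte markers in IDTC and Parent arrays, the last 3 lists with none called by limma. These arrays give no detection call, so no marker is shown to be absent. DUSP6, a phosphatase induced by the pathway that the drug inhibits, was at 8.75, 8.86 and 8.66 in IDTC and 11.20, 11.19 and 11.21 in Parent arrays.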

How the data were processed

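The deposited table held 1 log2 expression value per probe set and array, for 33297 probe sets. The authors had normalized the log2 values before deposit; per the submitters' processing notes, RMA, Partek 6.6 and Affymetrix Expression Console were used, in roles not stated there, and no source used here gives a genome build. Gene names came from the platform annotation, where 19460 probe sets had 1 symbol, 1754 had several and 12083 were not listed. For 769 genes with several probe sets the brightest on average across the 6 arrays was kept, which left 18417 genes. The files hold no counts or detection calls. The number of arrays limits the precision that can be stated, as do the scaling of the arrays and background signal in dim genes.

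Differences (IDTC minus Parent) were tested by the moderated model of limma (version 3.58.1, run under R 4.3.3), 2-sided and with neither covariates nor a filter on level, adjusted by Benjamini-Hochberg over all 18417 genes and called under 0.05. The words rose and fell are used for called genes. Errors of log2 fold changes are standard errors. The procedure was tested on simulated data.

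The members, the role classes and the gene lists were chosen with earlier results of these data known. Genes named were every TIMM and TOMM gene, carriers called at 0.5 log2 or more, the most changed carrier of each class, and up to 6 called genes of each further list. Other carriers and the 13 pairs were chosen after their values were seen. Values in every array were to be given for members called at 1 log2 or more and for the most and least changed gene of each import complex; other genes with such values were added. Titles of both groups share the numbers 1 to 3, but nothing in the labels says that these pair the samples, so they were not taken to. The correlations of the deviations from the group means were 0.315, -0.192 and 0.26 for numbers 1 to 3, which does not settle the question. Protein sequences were not used here.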

Additional observations from a re-analysis of the deposited data

How the results depend on the processing

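Results were recomputed under 13 other settings, and under 3 more chosen after seeing the data, where they apply. The counts of import genes, carriers and import partners called lower stayed within 1.5 times, and the import machinery fell more than the carriers under each (difference of the means -0.45 to -0.38). Of 50 named genes, TIMM23 and TOMM20L were not tested without the dimmest 40% of genes; of the other 48, 45 kept their direction and call under all settings, and no named gene reversed where tested. SLC25A37, SLC25A45 and TIMM10B changed their call. Most carriers and listed genes among the 50 were picked because they were called, so their stability was partly set by that choice. Outside the 50, genes that changed their call included SLC25A13, SLC25A18, IMMP2L and UCP3. The median of the import genes was -0.61 without the dimmest 40% of genes, with the lowest-mean probe set and with the mean of the probe sets, -0.48 with arrays re-centred on the medians of the genes tested, and between -0.61 and -0.49 when 1 array was left out. The median of the carriers was -0.09 and -0.10 with re-centring and with quantile normalization over the genes tested, and between -0.19 and -0.13 when 1 array was left out. Under both quantile normalizations 2 import genes were called higher. Of the transporters listed beside the carriers, 1 was called higher with arrays re-centred on their own medians and with quantile normalization of all probe sets. The same held with the dim filter, the intensity trend, the replicate block, and without any 1 array. The replicate block left 17 import genes lower and 1 higher, and 19 carriers lower and 5 higher. The small number of arrays, 3 a group, and the lack of detection calls limit what dim members can show.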
